A study of Rattus norvegicus with 9 samples.

Results

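The Hox genes of the 4 rat clusters (Hoxa, Hoxb, Hoxc and Hoxd) were described in 9 fetal lungs of Sprague-Dawley rats. A gene was a member when its rat symbol, found from the NCBI Gene ID of its row, was Hox followed by a cluster letter from a to d and a paralog number. RefSeq names 39 such genes, and 30 of them were found among the 17465 genes of the deposited table (9 of Hoxa and 7 each of Hoxb, Hoxc and Hoxd). Hoxa9, Hoxa10, Hoxb1, Hoxb2, Hoxb6, Hoxc6, Hoxc13, Hoxd8 and Hoxd11 were not analysed here. Transcripts were measured by sequencing total RNA from which ribosomal RNA had been removed. The groups were 3 control lungs, 3 hypoplastic lungs without treatment and 3 hypoplastic lungs given AFSC-EVs, vesicles that amniotic fluid stem cells release. The hypoplasia is attributed in the series title to oligohydramnios, a shortage of amniotic fluid. No source used here gives fetal age, litter, or the dose, route and time of the vesicles. The labels name the libraries as separate lungs but not their animals, so p-values measure the spread between these libraries.

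Hox genes encode homeodomain transcription factors that give cells their position along the head-to-tail axis. Within each cluster the genes stand in the order of their paralog numbers, and low-numbered genes are switched on earlier and further forward than high-numbered genes. Members of a paralog group are copies of the same ancestral gene in the different clusters. In the developing lung Hox transcripts are known mainly from the mesenchyme, and Hoxa5 is the member whose loss in mice is best known for defects of the airways and lung. Hox proteins bind DNA together with homeodomain partners of the TALE class (the Meis, Pbx and Pknox families), and Polycomb complexes keep clusters silent where they are not used.

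Library totals ran from 56922779 to 88243188 estimated counts, and the Hox members together held 2969 to 8537 of them. Levels are given in CPM, estimated counts scaled to the library size after TMM normalization. A count of 0 allows up to 3 counts, which is 0.034 to 0.0527 CPM of the unscaled library total, for counting error only. The lung markers Nkx2-1, Sftpb and Sftpc were at 264.5 CPM or more in each library. Differences were tested by edgeR's quasi-likelihood test over all 12966 genes that passed a filter on low counts, with Benjamini-Hochberg adjustment. In bulk tissue, fewer cells of a type and less RNA per cell cannot be told apart.

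Among the 30 members measured in control lungs, expression was concentrated in the low-numbered genes of the Hoxa and Hoxb clusters. The summed level of the 9 Hoxa members was 50.2 CPM ± 14.7 (SD, n = 3), and that of the 7 Hoxb members was 36.5 CPM ± 16.6 (SD, n = 3). The Hoxc members summed to 0.666 CPM ± 0.269 (SD, n = 3) and the Hoxd members to 0.118 CPM ± 0.067 (SD, n = 3). The control ranges of Hoxa (34.5 to 63.6 CPM) and Hoxb (17.8 to 49.6 CPM) overlapped, and in each control library the Hoxc and Hoxd sums were below 1 CPM. By position, members with paralog numbers 4 and 5 summed to 59.8 CPM ± 23.5 (SD, n = 3). Members 1 to 3 summed to 24.5 CPM ± 6.35 (SD, n = 3), members 6 to 8 to 3.14 CPM ± 1.64 (SD, n = 3) and members 9 to 13 to 0.072 CPM ± 0.056 (SD, n = 3). In order of paralog number these sums hold 6, 7, 5 and 12 members, and they are not divided by gene length. Genes not analysed are absent from them: Hoxb1 and Hoxb2 from 1 to 3, and Hoxb6, Hoxc6 and Hoxd8 from 6 to 8. Hoxa9, Hoxa10, Hoxc13 and Hoxd11 are absent from 9 to 13.

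**Figure D1:**
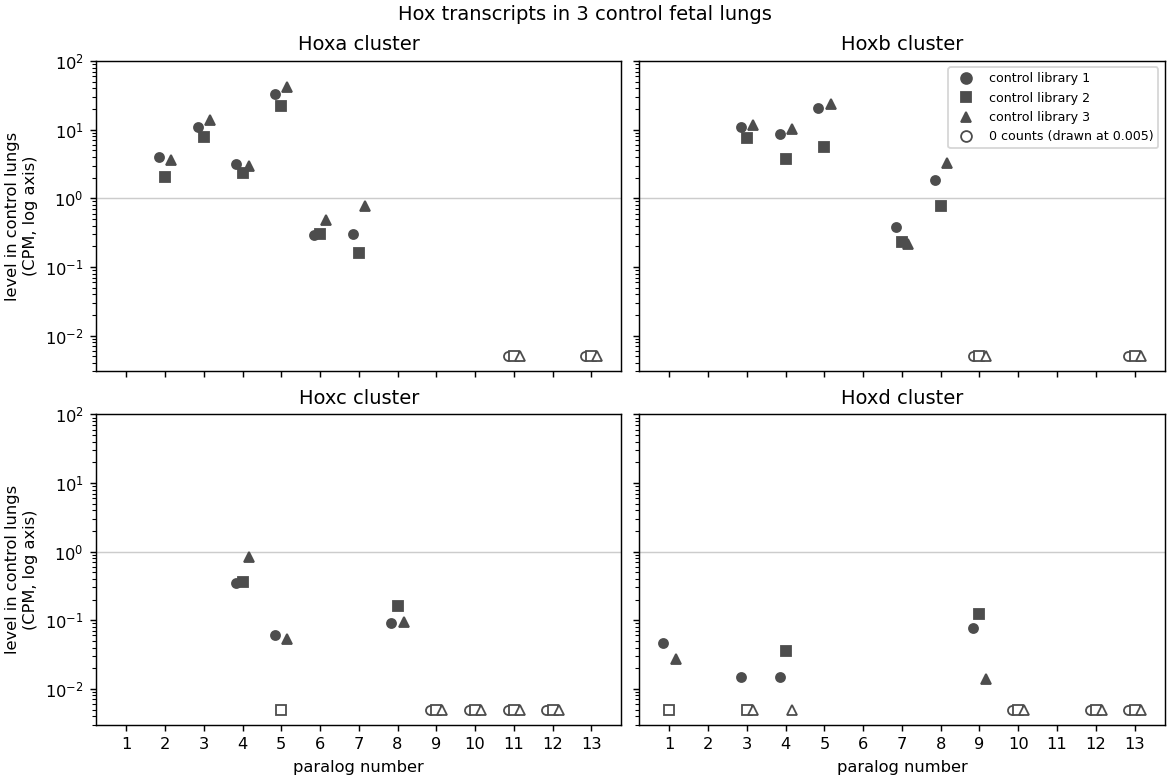
Level of 29 of the 30 Hox members in the 3 control libraries, in CPM on a log axis, against paralog number, with 1 panel per cluster. Filled symbols are libraries with counts, open symbols are libraries at 0 counts and are drawn at 0.005, and the line marks 1 CPM. The members above 10 CPM are Hoxa3, Hoxa5, Hoxb3, Hoxb4 and Hoxb5, each in some or all control libraries, and no member with a paralog number of 10 or more was counted.

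Hoxa5 (Gene ID 79241) was at 33.2, 21.8 and 41.3 CPM in control libraries 1, 2 and 3. Hoxb5 (Gene ID 497987), its paralog in the Hoxb cluster, was at 20.5, 5.53 and 24.0 CPM. Hoxa3 (Gene ID 103690130), known for patterning of the pharyngeal arches, was at 10.8, 7.71 and 13.9 CPM. Hoxb3 (Gene ID 303488), a paralog of Hoxa3, was at 10.8, 7.56 and 11.7 CPM. In all 4 genes the lowest control value was that of library 2. Hoxb4, known in blood stem cells, had a control mean of 7.55 CPM ± 3.42 (SD, n = 3), Hoxa2, a gene of the hindbrain and the second pharyngeal arch, 3.23 CPM ± 1.06, Hoxa4 2.82 CPM ± 0.439 and Hoxb8 1.98 CPM ± 1.28. These 8 members and Hoxc4 had a mean of at least 1 CPM over the 9 libraries.

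To compare levels between genes they were taken per length, as CPM per kilobase of the gene's span in RefSeq, which includes introns. Per kilobase of span the control means were 8.25 ± 2.52 (SD, n = 3) for Hoxa5, 7.55 ± 4.44 for Hoxb5, 2.92 ± 1.33 for Hoxb4, 1.40 ± 0.219 for Hoxa4, 1.13 ± 0.728 for Hoxb8 and 0.770 ± 0.252 for Hoxa2. Hoxa5 and Hoxb5 did not differ beyond their spread, and the same holds for Hoxa4 and Hoxb8 and for Hoxb8 and Hoxa2. Hoxa3 (span 43.97 kb) and Hoxb3 (span 24.66 kb) came to 0.245 and 0.407 CPM per kilobase, values that cannot be placed in this order because transcripts with distant starts lengthen the span. The RefSeq span of Hoxa3 also overlaps those of Hoxa4, Hoxa5 and Hoxa6, so counts of these genes are uncertain where the counting could split shared reads. Hoxa5 and Hoxa6 overlap the noncoding gene Hoxaas3 in the same way, and Hoxb5 overlaps Hoxb5os. Hoxc4 and Hoxc5 overlap Hoxc6, which was not analysed, Hoxc5 also overlaps Mir615, and Hoxd4 overlaps Mir10b and LOC120101573. No source used here says whether strand was counted, so reads of overlapping genes on opposite strands cannot be told apart.

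The remaining Hoxa and Hoxb members were low. Hoxa6, Hoxa7 and Hoxb7 had control means of 0.361, 0.413 and 0.277 CPM, and Hoxb9, Hoxb13, Hoxa11 and Hoxa13 had no count in any control library. Hoxc4 had a control mean of 0.512 CPM ± 0.273 (SD, n = 3). Hoxc8 was at 0.092, 0.161 and 0.095 CPM in control, 0.122, 0.082 and 0.036 CPM in hypoplastic and 0.079, 0.024 and 0.029 CPM in treated libraries. Hoxc5, the third paralog of group 5, was at 0.061, 0.00 and 0.054 CPM in the control libraries, with at most 4 counts in any of them. Hoxd9 had a control mean of 0.072 CPM ± 0.056. Hoxd1 was at 0.046, 0.00 and 0.027 CPM in control, 0.00, 0.016 and 0.09 CPM in hypoplastic and 0.079, 0.00 and 0.00 CPM in treated libraries, at most 6 counts in any library and too few to order the groups. Hoxd3 and Hoxd4 were at 0.005 and 0.017 CPM. In the control libraries Hoxd3 had at most 1 count and Hoxd4 at most 2. Hoxc9, Hoxc10, Hoxc11, Hoxc12, Hoxd10, Hoxd12 and Hoxd13 were at 0 in the 3 control libraries. Of the 12 members with paralog numbers 9 to 13, which pattern the trunk end, limbs and urogenital tract, 6 were at 0 in all 9 libraries, and the highest level of any of them in any library was 0.653 CPM. The 9 members numbered 10 to 13 reached at most 7 counts.

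Of the 30 members, 14 passed the filter and were tested, among them Hoxa2 to Hoxa7, Hoxb3, Hoxb4, Hoxb5, Hoxb7, Hoxb8, Hoxc4 and Hoxd9. The other 16 were too low, 6 of them at 0 in all libraries and 10 at up to 39 counts. Hoxd9 passed because the 3 hypoplastic libraries and 1 other reached the filter level. The filter thus favoured a higher level of Hoxd9 in the hypoplastic group, and its p is no support for a difference.

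Hypoplastic lungs were set against control lungs to see which Hox transcripts differ in the hypoplasia model. No member was called: by edgeR 0 of 14 had an adjusted p under 0.05, beside 0.00771% of all genes tested. DESeq2 called 207 of all genes and limma voom 1, and neither called a member. Hoxa4 had the lowest adjusted p of the members, 0.317. Before adjustment 4 members had p under 0.05, beside 12.4% of all genes. All 4, with Hoxa4, Hoxc4 and Hoxd9 among them, were higher in hypoplastic lungs, as were 6.67% of all genes, and 0 members were lower, as were 5.69% of all genes. The libraries of 3 members, with Hoxa4 and Hoxd9 among them, did not overlap, with the hypoplastic values higher, as in 7.68% of all genes. For Hoxd9 the filter favoured this outcome. No member had hypoplastic values all below control, as 9.05% of all genes did. The median log2 fold change was 0.67 over the 14 members and 0.01 over all genes tested, and 13 of 14 members lay above 0, as did 51.9% of all genes. Hoxd9 enters the counts of higher members and this median, and under the limit of the filter it lends them no support. Without hypoplastic library 2 only Hoxa4 of the 14 members tested had an unadjusted p under 0.05, beside 8.99% of all genes. Without control library 2 the members' median was 0.46. In that fit 4 of 16 members, the low members Hoxd3 and Hoxd9 among them, had an unadjusted p under 0.05, beside 6.49% of all genes. The fibroblast markers had a median log2 fold change of 0.71 in the same comparison, with 2 of 10 higher at an unadjusted p under 0.05, and the epithelium markers one of -0.25, with 5 of 9 lower. The 6 cardiac muscle markers summed to 2.64 to 10.9 CPM in control and 2.99 to 145 CPM in hypoplastic libraries, and the 6 neutrophil markers to 6.60 to 12.9 CPM and 53.8 to 95.3 CPM. At an unadjusted p under 0.05 by edgeR, 5 of 6 cardiac muscle (median 3.3), 5 of 6 neutrophil (3.13), 3 of 5 neuron and Schwann cell (2.55), 2 of 3 cartilage (1.04) and 3 of 4 skeletal muscle markers tested (0.92) were higher, and 0 of 5 smooth muscle markers (0.68). The part of these in the Hox differences was not tested.

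**Figure D2:**
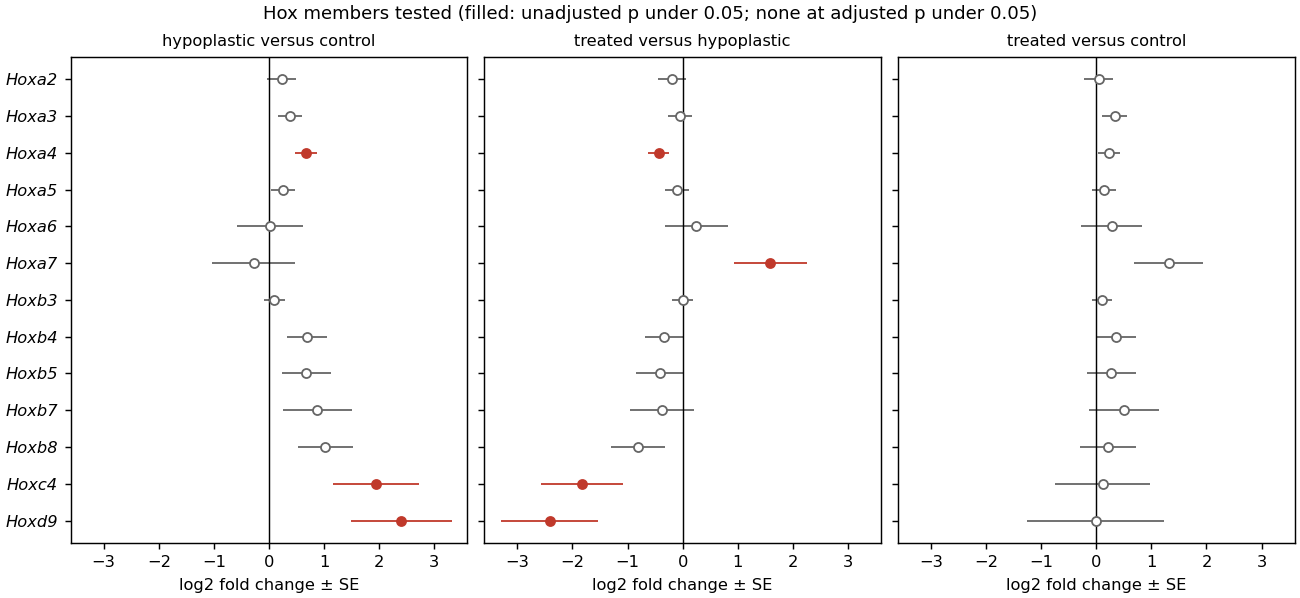
log2 fold change with its standard error for 13 of the 14 Hox members tested, in each of the 3 comparisons, from edgeR's quasi-likelihood fit. Filled red points have an unadjusted p under 0.05 (3, 4 and 0 of the members drawn), and no member has an adjusted p under 0.05.

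Hoxa4 (Gene ID 100912525), a low-numbered gene next to Hoxa5 in the cluster, was at 3.14, 2.32 and 2.997 CPM in control libraries 1, 2 and 3. It was at 4.97, 4.29 and 4.22 CPM in hypoplastic libraries 1, 2 and 3, each above the highest control value. Hoxa4 thus had a log2 fold change of 0.67 (SE 0.197; edgeR's quasi-likelihood test, unadjusted p 0.00716, adjusted p 0.317). This difference was 0.55 to 0.76 when any of the 9 libraries was left out, and the unadjusted p stayed under 0.05 in all 9 of these fits. Over the alternatives the adjusted p ran from 0.0821 to 0.762.

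Promoter sequences of Hoxa4, Hoxc4 and Hoxd9 are shown because they are members with an unadjusted p below 0.05 here and an entry among the RefSeq promoters used (build GRCr8), and because they differ in CpG content, a feature tied to Polycomb regulation of clusters. Each is the 250 bases before the annotated start, 5′ to 3′ on the gene's strand, with CpG dinucleotides in capitals. They lie at chr4:82622303-82622552 (minus strand), chr7:136048809-136049058 (plus strand) and chr3:80007756-80008005 (plus strand).
Hoxa4: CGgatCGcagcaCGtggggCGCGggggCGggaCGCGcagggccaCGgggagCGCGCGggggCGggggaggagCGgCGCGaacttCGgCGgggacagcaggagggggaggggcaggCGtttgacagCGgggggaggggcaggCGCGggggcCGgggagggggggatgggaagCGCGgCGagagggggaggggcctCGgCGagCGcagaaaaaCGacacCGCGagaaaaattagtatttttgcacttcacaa
Hoxc4: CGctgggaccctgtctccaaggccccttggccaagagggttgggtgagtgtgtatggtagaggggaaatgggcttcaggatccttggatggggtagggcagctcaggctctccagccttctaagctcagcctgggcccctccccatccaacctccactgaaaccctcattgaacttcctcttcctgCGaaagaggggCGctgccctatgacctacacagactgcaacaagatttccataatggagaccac
Hoxd9: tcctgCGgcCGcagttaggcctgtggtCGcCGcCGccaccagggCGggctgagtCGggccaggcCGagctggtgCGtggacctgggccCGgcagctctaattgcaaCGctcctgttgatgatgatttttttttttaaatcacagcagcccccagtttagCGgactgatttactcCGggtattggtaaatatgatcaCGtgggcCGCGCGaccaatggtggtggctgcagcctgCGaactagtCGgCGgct
The Hoxa4 window held 32 CpG dinucleotides and the Hoxd9 window 20, while the Hoxc4 window, which lies within the RefSeq span of Hoxc6, held 3. The median was 20 over the 15 members with a promoter in RefSeq and 5 over all 33469 promoters of that length.

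Motifs were searched on either strand in these windows, and those printed do not overlap each other in their letters. CCAAT, the box bound by NF-Y, was in 9 of the 15 Hox windows and in 34.0% of all promoters, and TATAAA was in 1 Hox window and in 12.9% of all. TGATNNAT, a form of the joint site of Hox and Pbx proteins, was in 1 Hox window and in 7.96% of all. The DR5 type of retinoic acid response element was in none of the 15 and in 0.009% of all. A match is a run of letters and not a measured site. The other promoters were those of Hoxa2, Hoxa3, Hoxa6, Hoxa7, Hoxa11, Hoxa13, Hoxd1, Hoxd3, Hoxd4, Hoxd10, Hoxd12 and Hoxd13.

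Hoxc4 (Gene ID 24459), a paralog of Hoxa4, was at 0.352, 0.357 and 0.827 CPM in control libraries 1, 2 and 3. It was at 0.823, 4.65 and 0.579 CPM in hypoplastic libraries 1, 2 and 3. Hypoplastic library 2 was 5.63 times the highest of the other 8 libraries, and the other hypoplastic libraries lay within the control range. For Hoxc4 the fitted log2 fold change was 1.95 (SE 0.773, unadjusted p 0.0315, edgeR adjusted p 0.369), and it was 0.43 without hypoplastic library 2.

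Hoxd9 (Gene ID 688999), a gene of the posterior part of its cluster, was at 0.077, 0.125 and 0.014 CPM in control libraries and at 0.198, 0.653 and 0.235 CPM in hypoplastic libraries 1, 2 and 3. These levels rest on 1 to 7 counts in control and on 13 to 40 counts in hypoplastic libraries. For Hoxd9 the fitted log2 fold change was 2.403 (SE 0.920, edgeR adjusted p 0.360), under the limit of the filter given above.

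**Figure D3:**
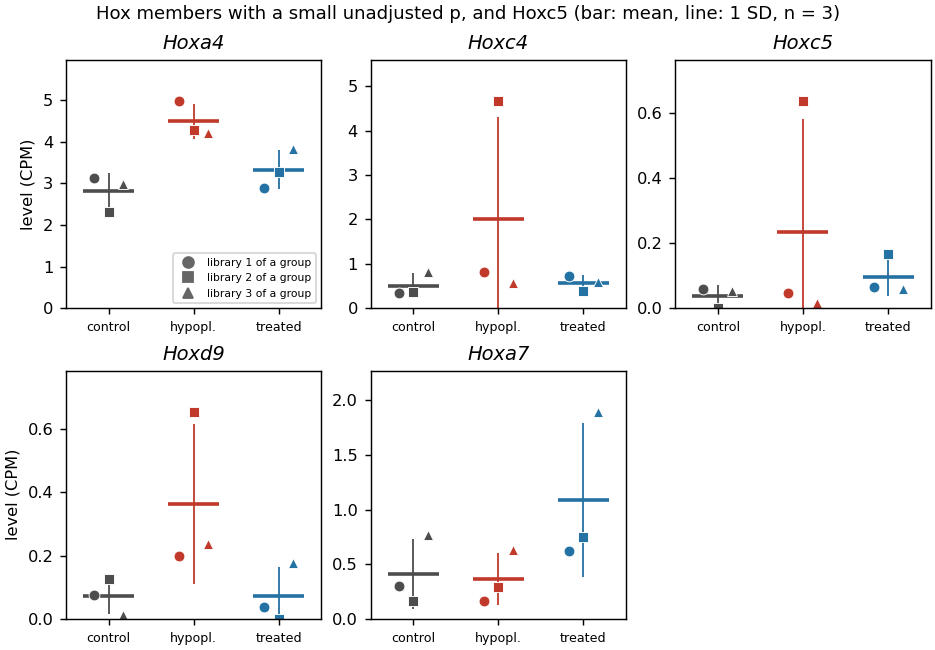
Level in CPM of 4 Hox members with an unadjusted p under 0.05 in any comparison and of Hoxc5, by group and library, with the group mean (bar) and 1 SD (line, drawn down to 0 where it would go below). Hoxa4 is higher in all 3 hypoplastic libraries, while in Hoxc4 and Hoxc5 the high value is that of hypoplastic library 2 (squares), at 4.65 and 0.637 CPM.

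Hypoplastic library 2 held the highest level of 10 members, among them Hoxa3, Hoxb9, Hoxc4, Hoxc5, Hoxd3, Hoxd4, Hoxd9, Hoxd10 and Hoxd13. For some this rests on few counts there: 3 for Hoxb9, 2 for Hoxd10, 7 for Hoxd13, and 11 for Hoxd3, which had 11 in hypoplastic library 1 too. The share of all genes highest in hypoplastic library 2 is not given here, so the count is not shown to be particular to Hox genes. Hoxc5 was at 0.637 CPM (39 counts) there and at 0.167 CPM or less in the other 8 libraries. Hoxd4 was at 0.49 CPM (30 counts) there and at 0.039 CPM (3 counts) or less in the others, too few counts for a ratio. In that library the 7 Hoxc members summed to 5.37 CPM, against 0.506 to 0.976 in control, and the 7 Hoxd members to 1.49 CPM, against 0.041 to 0.161. In hypoplastic libraries 1 and 3 the Hoxc sums were 0.99 and 0.63 CPM and the Hoxd sums 0.381 and 0.380 CPM. These Hoxd sums too lay above all control and treated libraries (at most 0.220 CPM). The 10 fibroblast markers summed to 16190 CPM in hypoplastic library 2 and to 2398 to 7261 CPM in the other 8, and the 9 epithelium markers were lowest there, at 3080 CPM. Lum, a proteoglycan gene of connective tissue, was at 75.0 CPM there and at 6.28 CPM or less elsewhere. The 7 skeletal muscle markers were also highest there, at 17.2 CPM against 9.26 to 15.2 CPM in the others, with Myog at or near 0 throughout. Their part in the Hox values was not tested.

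Members of paralog group 5 and the other well-expressed genes had overlapping libraries. Hoxa5 was at 36.3, 32.7 and 46.0 CPM in hypoplastic libraries 1, 2 and 3, a range that overlaps the control values. Its log2 fold change was 0.25 (SE 0.219, edgeR adjusted p 0.663), and 0.04 without control library 2. Hoxb5 was at 24.5, 22.4 and 33.4 CPM, also overlapping control, with a log2 fold change of 0.68 (SE 0.444, adjusted p 0.552), or 0.26 without control library 2. Hoxc5 was not tested. Its hypoplastic values were 0.046, 0.637 and 0.018 CPM.

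Hoxa3 was at 12.2, 16.0 and 14.1 CPM in hypoplastic libraries 1, 2 and 3, of which only the first lay within the control range. The log2 fold change of Hoxa3 was 0.38 (SE 0.219, edgeR adjusted p 0.497), or 0.19 without control library 2. Hoxb3 was at 9.84, 11.1 and 11.3 CPM, all within the control range, with a log2 fold change of 0.10 (SE 0.184, adjusted p 0.859). Hoxb4 and Hoxb8, the latter known in blood progenitors, had log2 fold changes of 0.69 (SE 0.359) and 1.02 (SE 0.499), with edgeR adjusted p of 0.462 and 0.434. Without control library 2 they were 0.37 and 0.65. Without control library 3 Hoxa3, Hoxb4 and Hoxb8 were each below an unadjusted p of 0.05, with log2 fold changes of 0.61, 0.98 and 1.61. In that fit 6 of 16 members were, beside 12.9% of all genes. With all 9 libraries Hoxa2, Hoxa6, Hoxa7 and Hoxb7 lay between -0.28 (Hoxa7) and 0.88 (Hoxb7).

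**Figure D4:**
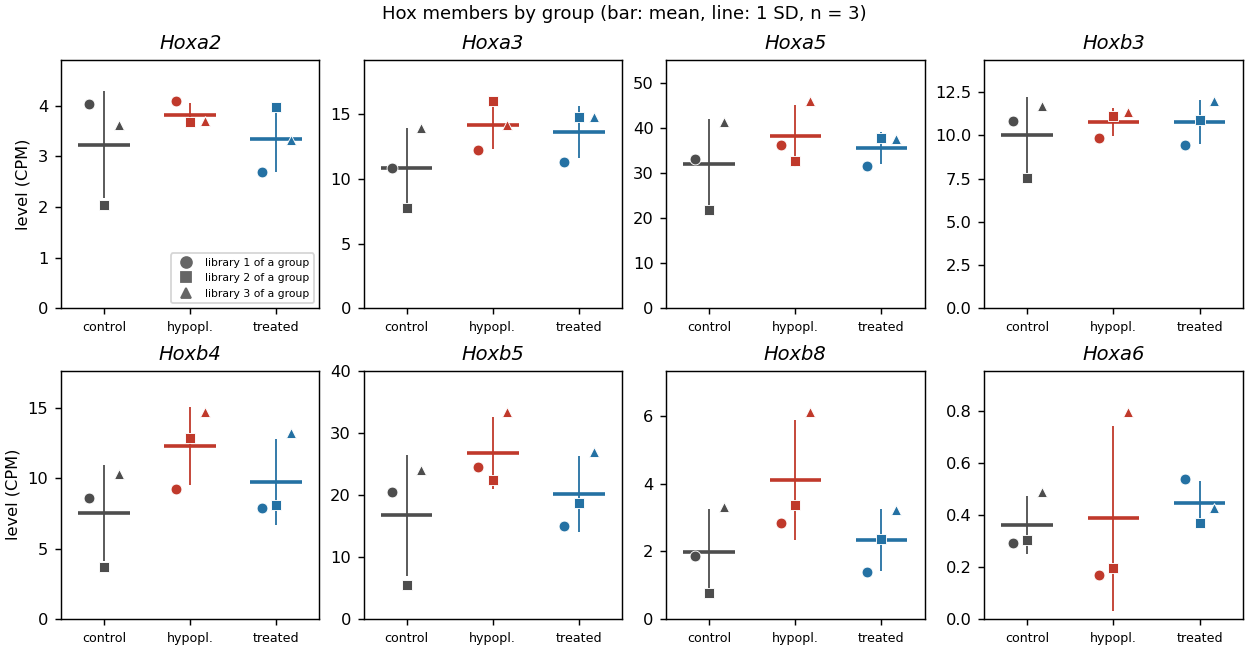
Level in CPM of 8 further Hox members in each library, by group, with the group mean (bar) and 1 SD (line, n = 3). Control library 2 (square) is the lowest of the 9 libraries in Hoxa2, Hoxa3, Hoxa5, Hoxb3, Hoxb4, Hoxb5 and Hoxb8, for Hoxb5 at 5.53 CPM against 14.9 to 33.4 CPM in the others.

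Control library 2 was the lowest of the 9 libraries in 10 of the 14 tested members. The share of all genes lowest in that library is not given here, so the count is not shown to be particular to Hox genes. The deficit was unequal: Hoxb5 there was 24.8% of the mean of the other control libraries, Hoxb8 29.7%, Hoxb4 39.4%, Hoxa5 58.5%, Hoxa3 62.5%, Hoxb3 67.1% and Hoxa4 75.6%. The ratio of Hoxa5 to Hoxb5 counts, which needs no scaling between libraries, was 3.94 in control library 2 and 1.38 to 2.12 in the other 8. Hoxb5 held 20.2% of the counts of the pair there (Wilson 95% interval 18.3 to 22.3, which covers counting error only) and 32.1 to 42.1% in the others. In the same library the fibroblast markers (2398 CPM) and the 5 smooth muscle markers (179 CPM) had their lowest sums of all libraries, and the epithelium markers (5637 CPM) and the 6 erythroid markers (12210 CPM) their highest. The 4 liver markers summed to 5.87 CPM there and to 0.027 to 0.198 CPM in the other 8. Among the fibroblast markers Pdgfra was at 35.6 CPM against 78.3 to 333 CPM elsewhere, and Tbx4, a lung mesenchyme factor, at 47.5 CPM against 69.9 to 113 CPM. The part of these in the Hox values was not tested.

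**Figure D5:**
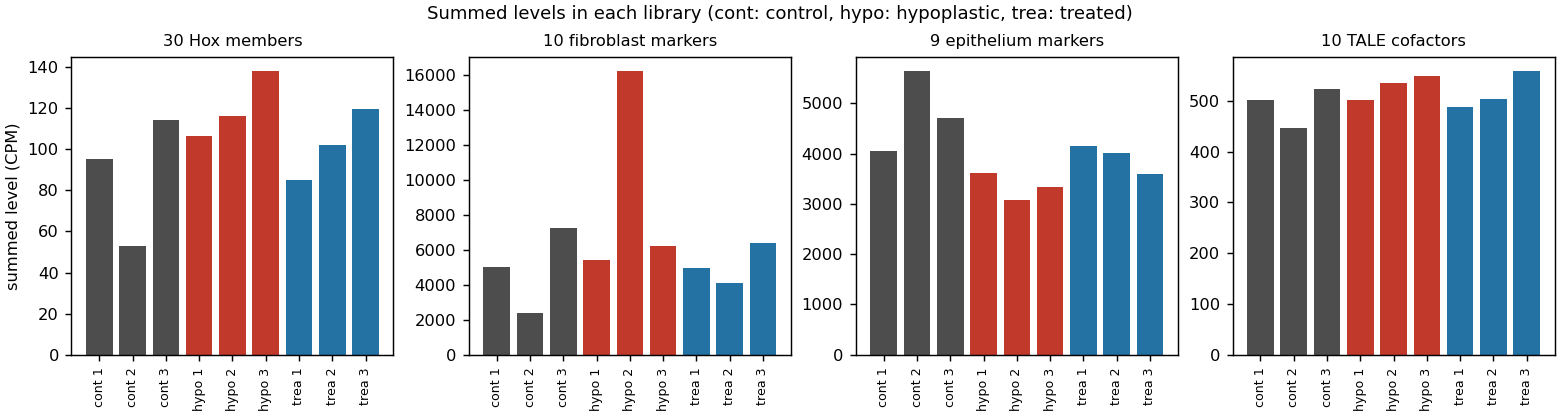
Summed level in CPM in each of the 9 libraries of the 30 Hox members, 10 fibroblast markers, 9 epithelium markers and 10 TALE cofactors, coloured by group, each panel on its own axis from 0. Control library 2 has the lowest sum of Hox members (53.0 CPM) and of fibroblast markers, hypoplastic library 2 has the highest sum of fibroblast markers, and hypoplastic library 3 has the highest sum of Hox members (138.0 CPM).

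Treated lungs were then set against untreated hypoplastic lungs to see which Hox transcripts differ after the vesicles. This comparison shares its hypoplastic libraries with the preceding one, so the values of the members stand side by side here and the signs are not independent. No member was called: 0 of 14 had an adjusted p under 0.05 by edgeR, DESeq2 or limma voom, beside 0.0% of all genes by edgeR and 17 genes by DESeq2, and the lowest adjusted p of a member was 0.895. Before adjustment 5 members had p under 0.05, beside 5.56% of all genes. Of these, 4 members were lower in the treated lungs, with Hoxa4, Hoxc4 and Hoxd9 among them, as were 3.56% of all genes, and Hoxa7 was higher, as were 2.0% of all genes. The median log2 fold change of the 14 members was -0.35, beside -0.01 over all genes tested, and 2 of 14 lay above 0, as did 48.1% of all genes. Hoxd9 enters the count of lower members and this median, and under the limit of the filter it lends them no support. Without hypoplastic library 2 none of 14 members had an unadjusted p under 0.05, beside 5.42% of all genes. Without treated library 1 or treated library 2 only Hoxa7 of 16 and 15 members had, beside 2.85% and 5.78%. Without hypoplastic library 1 or treated library 3 there were 3 such members of 15 and 16, beside 5.5% and 7.39%. Without control library 1, 2 or 3 there were 4, 6 and 4 of 16, beside 4.94%, 7.3% and 5.31%. Without hypoplastic library 3 there were 5 of 16, beside 6.09%. The low members Hoxd3 and Hoxd9 were among those of the fits without a control library or hypoplastic library 3. In the same comparison 6 of 6 cardiac muscle (median -4.23), 2 of 5 neuron and Schwann cell (-1.72), 2 of 4 skeletal muscle (-0.79) and 1 of 10 fibroblast markers (-0.45) were lower at an unadjusted p under 0.05 by edgeR, and 2 of 9 epithelium markers (0.18) were higher. The cardiac muscle markers summed to 2.66 to 5.76 CPM in treated libraries. The part of these in the Hox differences was not tested.

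Hoxa4 was at 2.88, 3.28 and 3.82 CPM in treated libraries 1, 2 and 3. All 3 lay below the lowest hypoplastic value (4.22 CPM), and those of libraries 2 and 3 lay above the control range. The libraries of the groups did not overlap, with treated values lower, in Hoxa4 and Hoxd9, as in 4.74% of all genes, and with treated values higher in 0 members, as in 5.07%. For Hoxd9 the filter favoured this outcome. Hoxa4 had a fitted log2 fold change of -0.44 (SE 0.194, unadjusted p 0.0489, edgeR adjusted p 0.895), and it was -0.54 to -0.34 with any library left out, with an unadjusted p under 0.05 in 2 of these 9 fits.

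Hoxc4 was at 0.737, 0.383 and 0.602 CPM in treated libraries, inside the control range, with a log2 fold change of -1.83 (SE 0.749; adjusted p by edgeR 0.895), or -0.31 without hypoplastic library 2. Hoxd9 was at 0.039, 0.00 and 0.176 CPM in treated libraries, which are 3, 0 and 12 counts. Its log2 fold change was -2.42 (SE 0.886, edgeR adjusted p 0.895), again under the limit of the filter.

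Hoxa7 (Gene ID 500126), a trunk patterning gene, was at 0.619, 0.753 and 1.89 CPM in treated libraries and at 0.168, 0.294 and 0.633 CPM in hypoplastic libraries 1, 2 and 3. The groups overlapped at hypoplastic library 3, and treated library 3 stood highest. For Hoxa7 the fitted log2 fold change was 1.59 (SE 0.664, unadjusted p 0.039, edgeR adjusted p 0.895), or 0.95 without treated library 3. In control lungs Hoxa7 was at 0.306, 0.161 and 0.773 CPM, so treated libraries 1 and 2 lay within the control range.

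Hoxa5 was at 31.6, 37.7 and 37.5 CPM in treated libraries 1, 2 and 3, overlapping the hypoplastic values, with a log2 fold change of -0.11 (SE 0.218; adjusted p by edgeR 0.969). Hoxb5 was at 14.9, 18.6 and 26.9 CPM, with a log2 fold change of -0.41 (SE 0.442, adjusted p 0.943). Hoxc5 was at 0.066, 0.167 and 0.059 CPM. Hoxb8, at 1.40, 2.37 and 3.23 CPM in treated libraries, had a log2 fold change of -0.82 (SE 0.491, adjusted p 0.917). Hoxa3 (11.3, 14.8 and 14.8 CPM) and Hoxb3 (9.44, 10.9 and 11.97 CPM) overlapped the hypoplastic values too. The summed level of the Hoxb members was 54.4 CPM ± 10.4 (SD, n = 3) in hypoplastic and 43.4 CPM ± 11.5 (SD, n = 3) in treated lungs, and that of the Hoxa members was 62.8 CPM ± 6.82 and 58.0 CPM ± 6.71. In both clusters the ranges of the groups overlapped.

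Treated lungs were also set against control lungs, with libraries that enter the other comparisons too. By edgeR 0 of 14 members had an adjusted p under 0.05, beside 0.0% of all genes, and 0 had an unadjusted p under 0.05, beside 4.17% of all genes (1.67% higher and 2.5% lower). DESeq2 and limma voom also gave 0 members on either count, beside 4.79% and 3.86% of all genes at an unadjusted p under 0.05. The median log2 fold change of the members was 0.25, beside 0.00 over all genes tested, and 0.12 without control library 2. Of the members 13 of 14 lay above 0, as did 50.6% of all genes, and in 0 members did the libraries stand apart, as they did with treated values higher in 4.37% and lower in 5.02% of all genes. Hoxa7 had the largest log2 fold change of the 14, 1.31 (SE 0.632, unadjusted p 0.0661, edgeR adjusted p 0.998). Without control library 3 Hoxa7 and Hoxa3, of 16 members, had an unadjusted p under 0.05, beside 4.85% of all genes. Without treated library 1 only Hoxa7 of 16 had, beside 3.33%. The log2 fold changes of Hoxa4, Hoxa5 and Hoxb5 were 0.23 (SE 0.197), 0.15 (SE 0.218) and 0.27 (SE 0.443), all with overlapping libraries. Without control library 2 those of Hoxa5 and Hoxb5 were -0.07 and -0.14.

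Summed levels of the TALE cofactors overlapped between groups. The 10 genes came to 491 CPM ± 39.1 (SD, n = 3) in control, 529 CPM ± 24.2 in hypoplastic and 517 CPM ± 36.5 in treated lungs. Meis1 was at 26.7 to 32.5 CPM in all 9 libraries, with control library 2 the lowest, by less than for Hoxb5. None of the 10 had an adjusted p under 0.05 in any comparison by edgeR. Meis3 was the only TALE gene below an unadjusted p of 0.05, in hypoplastic against control lungs (2.43 CPM in control and 3.29 CPM in hypoplastic; log2 fold change 0.44, SE 0.187; edgeR adjusted p 0.390), where 12.4% of all genes were.

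Polycomb genes, whose complexes place the repressive marks on silent Hox clusters, had 0 of 20 at an adjusted p under 0.05 by edgeR in any comparison. Between hypoplastic and control lungs Mtf2 alone was below an unadjusted p of 0.05 (log2 fold change 0.26, SE 0.114, edgeR adjusted p 0.397), beside 12.4% of all genes. The difference of Mtf2 was 0.17 without hypoplastic library 3. Cbx2, Ring1 and Phc2, subunits of the complex that binds and compacts marked chromatin, had one in treated against hypoplastic lungs, with log2 fold changes of 0.40 (SE 0.132), 0.30 (SE 0.115) and 0.22 (SE 0.093). Their edgeR adjusted p were 0.859, 0.895 and 0.895, and these 3 of 20 stand beside the 2.0% of all genes given above. The list median was -0.03 and 0.00 in these 2 comparisons. Of 7 Trithorax-type genes and H3K27 demethylases tested, which oppose Polycomb, none had an unadjusted p under 0.05 in any of the 3 comparisons.

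Of 13 tested genes that act upstream of Hox clusters, 2 were below an unadjusted p of 0.05 between hypoplastic and control lungs, beside 12.4% of all genes. Egr2, which drives Hox genes in the hindbrain, had a log2 fold change of 1.63 (SE 0.514; adjusted p by edgeR 0.323) with overlapping libraries, or 1.03 without hypoplastic library 2. Zbtb16, a zinc finger repressor that acts on Hox genes in limbs, averaged 44.4 CPM in control and 26.1 CPM in hypoplastic lungs (log2 fold change -0.77, SE 0.284; edgeR adjusted p 0.359), with control library 2 highest at 66.3 CPM and a difference of -0.36 without it. None of the 13 had such a p in treated against hypoplastic lungs. Aldh1a2, which makes retinoic acid, had one in treated against control lungs, beside 4.17% of all genes. It averaged 30.7 CPM in control and 22.1 CPM in treated lungs (log2 fold change -0.48, SE 0.193, edgeR adjusted p 0.998). Of 19 genes that flank the clusters, Snx10 (log2 fold change 0.89, SE 0.309; edgeR adjusted p 0.338) and Hibadh (-0.30, SE 0.127; adjusted p 0.386) were below an unadjusted p of 0.05 between hypoplastic and control lungs, beside 12.4% of all genes, and the list's median change was 0.02. Snx10 came to 0.52 without hypoplastic library 2 and Hibadh to -0.18 without control library 2. Hibadh was also below such a p in treated against control lungs (-0.30, SE 0.127, edgeR adjusted p 0.998), beside 4.17% of all genes.

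Wnt2b, Bmp4, Lef1, Axin2 and Tnc are known to depend on the group 5 paralogs in mouse lung. Of these 5 genes 1 was below an unadjusted p of 0.05 between hypoplastic and control lungs, beside 12.4% of all genes. This was Tnc, which encodes the matrix protein tenascin-C. Its log2 fold change was 0.59 (SE 0.227, edgeR adjusted p 0.366), with overlapping libraries, or 0.34 without hypoplastic library 2. None had one in the other 2 comparisons. Noncoding genes of the clusters were scarce. The 6 microRNA genes in the table (Mir10a, Mir10b, Mir196a, Mir196b, Mir196c and Mir615) and Hoxa11-as were listed at 0 in all 9 libraries, Hotairm1 had 3 to 17 counts and Hoxaas3 0 to 12.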

How the data were processed

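Total RNA of 9 fetal rat lungs was sequenced after ribosomal RNA depletion, and per the labels' protocols RNA of all libraries was extracted on the same day. The authors deposited 1 table of estimated counts per NCBI Gene ID, not normalized between libraries, of which 19.5% of the nonzero values were exactly whole. Build rn7 and DESeq2 are named per the submitters' processing notes. No source used here names the aligner, the counter or the annotation. Symbols came from RefSeq (GRCr8) for 99.1% of the IDs. Estimated counts were rounded and tested with edgeR 4.0.16 (R 4.3.3; glmQLFit with legacy=FALSE, glmQLFTest, TMM, filterByExpr), with all 9 libraries in 1 fit of a term per group. Benjamini-Hochberg adjustment ran over all genes tested. CPM use the TMM-scaled library size. Alternatives were other size factors and filters, DESeq2 1.42.0, limma voom (limma 3.58.1), only the 6 libraries compared, the replicate block, no ribosomal rows and each library left out. Members are named with their control level, and results of some genes are not reported here. Values in every library are given for paralog group 5, the 2 members of a cluster with the highest control CPM, and members at an unadjusted p under 0.05. Genes of the lists of partners, regulators, neighbours and targets at such a p in a comparison with hypoplastic lungs are named, while marker lists are given by counts and sums, and by name only for some genes chosen after their values were seen. Aldh1a2 and Hibadh in treated against control lungs fall outside this rule and were named in the same way. Members and lists were chosen with earlier results of these data known. Sequences are from RefSeq (GRCr8). Lengths are gene spans, since no transcript lengths were used here.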

Additional observations from a re-analysis of the deposited data

How the results depend on the processing

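No Hox member reached an adjusted p under 0.05 in any of the 3 comparisons under any alternative run. The number at an unadjusted p under 0.05 moved more. In hypoplastic against control lungs it was 4, 2 with a filter of a mean of at least 1 CPM, which tested 9 members, 3 with limma voom or with only the 6 libraries compared, 5 with the replicate block, 6 without a filter and 1 to 6 with 1 library left out. In treated against hypoplastic lungs the number of members was 5 of 14, 2 with that filter or with the replicate block, and 6 of 24 without a filter. It was 3 without normalization factors, with DESeq2, with limma voom or with only the 6 libraries compared, and 0 to 6 with 1 library left out. The share of all genes was 5.56%, 4.39% with that filter, 4.49% with the replicate block, 5.85% without a filter and 5.82% without normalization factors. It was 5.78% with DESeq2, 4.36% with limma voom, 5.1% with the 6 libraries and 2.85 to 7.39% with 1 library left out. In treated against control lungs the number of members was 0, 1 with the replicate block (Hoxa7), and 0 to 2 with 1 library left out. The share of all genes was 4.17%, 3.72% with the replicate block and 2.91 to 4.85% with 1 library left out. The member counts include low members, such as Hoxd3 and Hoxc5, where they pass the filter of that fit. No label says that replicate numbers mark shared litters or days: same-numbered libraries correlated in their deviations from group means by -0.282 to 0.227, above 0.1 in 3 of 9 pairs. Differently numbered libraries of different groups did so by -0.439 to 0.389, above 0.1 in 7 of 18 pairs. The median change of the members ran from 0.462 to 0.849, -0.646 to -0.216 and 0.094 to 0.601 in the 3 comparisons with 1 library left out. Over all genes, DESeq2 called 207 in hypoplastic against control lungs, where edgeR called 1, and 17 and 14 in the other comparisons, where edgeR called 0. Directions reversed with 1 library left out, among members given in every library, for Hoxb3 (-0.067 to 0.226) and Hoxa7 (-0.91 to 0.568) in hypoplastic against control, Hoxa3 (-0.144 to 0.068), Hoxa5 (-0.207 to 0.046) and Hoxb3 (-0.083 to 0.085) in treated against hypoplastic, and Hoxa5 (-0.067 to 0.371), Hoxb3 (-0.068 to 0.225), Hoxb5 (-0.144 to 0.622), Hoxc4 (-0.11 to 0.682) and Hoxd9 (-1.734 to 0.628) in treated against control lungs. They also reversed for Hoxa2 and Hoxa6, Hoxa6 and Hoxb7, and Hoxa2, Hoxb7 and Hoxb8 in these 3 comparisons. The cause was not tested. With CPM of the library total, the control levels of the 4 cluster sums and of Hoxa5, Hoxb5 and Hoxa4 moved by less than 1 SD. Depth limits the members under 10 counts.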
